A study of Arabidopsis thaliana with 6 samples.

Results

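The set described here holds 4 genes around the methionine-derived (aliphatic) glucosinolates of Arabidopsis thaliana. It was drawn from 13356 genes to which the probe annotation used here assigned a probe set of their own. The 4 genes are BCAT4 (AT3G19710), AT2G31790, GTR2 (AT5G62680) and GSTU20 (AT1G78370), and each was measured by 1 probe set assigned to that gene alone. They were chosen by their signals in these same samples, all lower in exudate, and by their known place in the pathway, so the difference between the sample types is given for them as a description and was not tested. The exudate group (n = 3 arrays) was fluid from severed phloem, collected with EDTA, a chelator used to keep sieve tubes from sealing, and its poly-A RNA went through a linear amplification kit. The LMPC phloem group (n = 3 arrays) was phloem tissue freed by laser microdissection and pressure catapulting (LMPC), and its poly-A RNA was amplified with a kit that included 10 PCR cycles. All plants were Arabidopsis grown with 8 h of light at 22 °C and 16 h of darkness at 16 °C until flowering, and no genotype, mutant or treatment was named for either group. RNA was hybridised to Affymetrix ATH1 arrays, and the values are MAS5 signals, 1 linear brightness value per probe set. The extraction note of the LMPC samples also speaks of exudate, and the groups here follow titles and source names. The amplification kit changed together with the sample type, so the 2 cannot be told apart in any comparison below, and neither can fewer contributing cells and less RNA per cell. The form of the deposited values also changed with the sample type, with at most 1 decimal on exudate arrays and up to 8 or 9 on LMPC arrays. Whether both groups were processed alike is not given, and a difference in processing cannot be told apart from the sample type either. The labels do not say whether arrays came from separate plants, so spreads and p-values cover only the variation between these samples.

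Glucosinolates are sulfur-rich defence compounds of the cabbage order, which release toxic products when damaged tissue brings them together with the enzyme myrosinase. The aliphatic kind starts from methionine, whose side chain is lengthened in a cycle that BCAT4 opens by removing the amino group. The lengthened amino acid is then turned into the core structure, which involves conjugation with glutathione, glucosylation and sulfation. The finished compounds are moved over long distances, and GTR1 and GTR2 are the transporters known to load them into the phloem.

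BCAT4, the aminotransferase that commits methionine to chain elongation, had signals of 73.7, 31.3 and 244.3 on exudate arrays 1, 2 and 3, against 2686, 2734 and 1529 on LMPC arrays 1, 2 and 3. The lowest LMPC array was well above the highest exudate array, and exudate array 3 stood out from the other exudate arrays. The mean signal was 116 ± 113 in exudate and 2316 ± 683 in LMPC phloem (SD, n = 3 each). The LMPC mean was thus 19.9 times the exudate mean. On the scale of log2(signal + 16), where 16 is a pseudocount that damps differences between dim values, the difference of exudate minus LMPC phloem was -4.45 ± 0.46 (SE of the fit). The exudate signal was low relative to the tissue but well clear of the dim end of its own arrays. It lay at the 93.1st, 83.1st and 96.7th percentile of all probe sets on exudate arrays 1, 2 and 3, against the 99.8th percentile or above on each LMPC array. Such percentiles show how far a probe set stood above the dim signals of an array and do not rank transcripts by abundance, since probe sets differ in brightness. BCAT4 was therefore brighter than the 75th percentile on all 6 arrays, the only member of which this was true.

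AT2G31790, a glucosyltransferase of the core pathway, had signals of 14.3, 6.6 and 0.8 on exudate arrays 1, 2 and 3, against 45.9, 58.4 and 34.5 on the LMPC arrays. The groups did not overlap, and the LMPC signals lay between the 80.1st and 87.9th percentile of their arrays. The mean was 7.23 ± 6.77 in exudate and 46.3 ± 12 in LMPC phloem, a log2 difference of -1.45 ± 0.32. All exudate signals lay below the 75th percentile of their arrays.

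GSTU20, a tau class glutathione transferase implicated in the conjugation step of the aliphatic pathway, had signals of 7.5, 1.1 and 20.1 on the exudate arrays, against 1353, 1006 and 507 on the LMPC arrays. Its probe set lay at the 99.1st percentile of brightness or above on each LMPC array and below the 75th percentile on each exudate array. The mean was 9.57 ± 9.67 in exudate and 955 ± 425 in LMPC phloem, and the log2 difference of -5.21 ± 0.38 was the most negative of the set. Because signals this dim carry little information on their own, the difference was also taken with every signal raised to at least the 75th percentile of its array, a bound chosen after seeing the data. For the signals as deposited, GSTU20 was then at least 36-fold lower in exudate. This bound was not taken under other scalings, and the log2 difference after scaling to the hybridization spike-ins was smaller in size, at -4.38.

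GTR2, the plasma membrane transporter that imports glucosinolates for phloem loading, had signals of 0.4, 2.8 and 19.9 on the exudate arrays, against 53.4, 34.2 and 50.3 on the LMPC arrays. The gap between the highest exudate and the lowest LMPC value was the narrowest of the set. The mean was 7.70 ± 10.6 in exudate and 46.0 ± 10.3 in LMPC phloem, a log2 difference of -1.46 ± 0.34. With the deposited signals raised to the 75th percentile of their arrays, GTR2 and AT2G31790 were each at least 1.84-fold lower in exudate. This bound too covers only the signals as deposited.

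**Figure D1:**
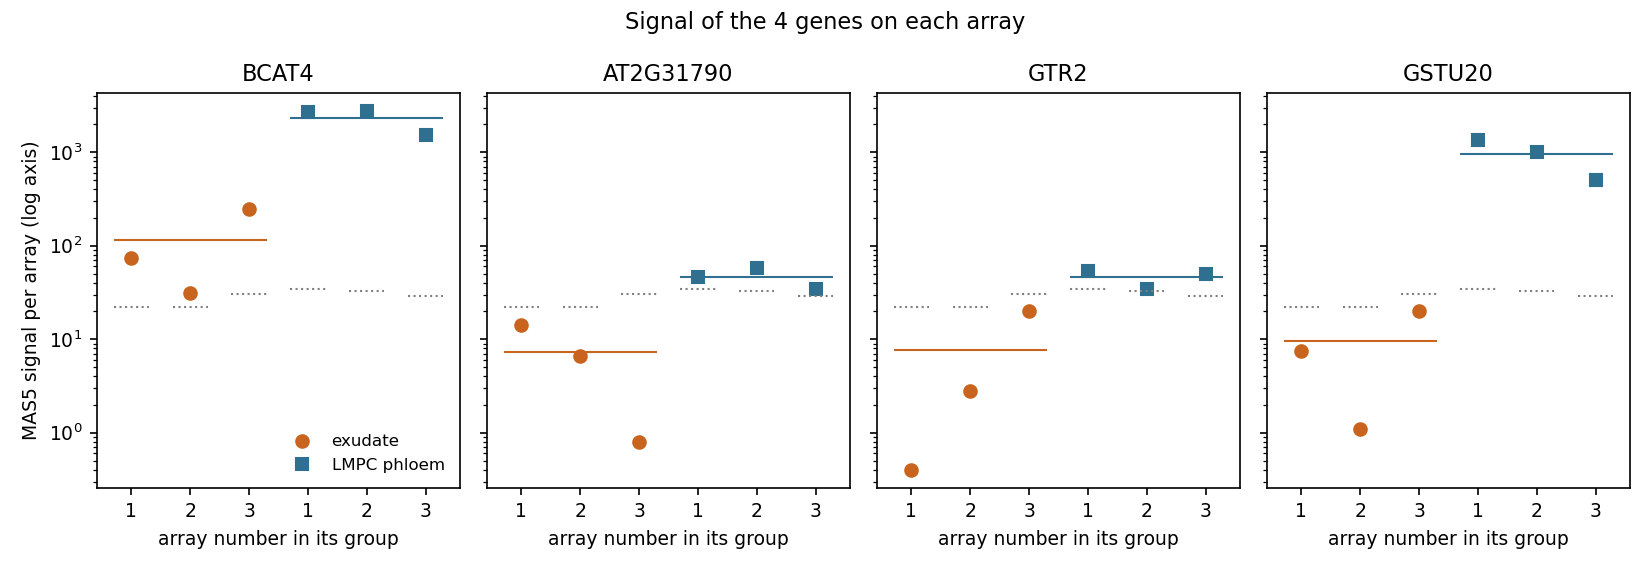
MAS5 signal (log axis) of BCAT4, AT2G31790, GTR2 and GSTU20 on exudate arrays 1 to 3 (circles) and LMPC phloem arrays 1 to 3 (squares), with group means as solid lines and the 75th percentile of each array as dotted lines. Each exudate point lies below each LMPC point of the same gene, and BCAT4 is above the dotted line on all 6 arrays, while the other 3 genes lie below it on every exudate array.

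With the pseudocount of the main fit, the members fell into 2 sizes of difference. BCAT4 and GSTU20 differed by more than 4 log2 units, and of 15320 tested probe sets 26 had a more negative difference than BCAT4 and 10 a more negative one than GSTU20. AT2G31790 and GTR2 were in a much more crowded range, with 866 and 843 probe sets more negative. The pseudocount limits how negative a difference can be, and the limit is tighter for genes this dim in LMPC phloem. The 2 sizes and the ranks are therefore not a trait of the genes alone. With a pseudocount of 1 the differences were -4.74 for BCAT4, -6.94 for GSTU20, -2.96 for AT2G31790 and -3.26 for GTR2. For all 4 genes each exudate array was below each LMPC array, as it was for 27.8% of the tested probe sets, and 16.6% of the tested probe sets were called lower in exudate (limma, Benjamini-Hochberg adjusted p under 0.05) against 8.51% called higher, or 25.2% in either direction. Nothing is read from the set's count against these shares, since this contrast was known when the genes were chosen.

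Over all tested probe sets the median difference was -0.27, and it was -0.05 after quantile normalization, 0.04 after median centring, 0.08 with reference genes as the scale and 0.42 with the spike-ins. The reference scale rests on 4 genes, which all differed between the groups as deposited at an unadjusted p under 0.05 (limma). Of these, GAPC2 was called higher (+1.74) and PEX4 lower (-1.84) in exudate, so this scale is a weak check. Relative to the median of -0.27, BCAT4 stood at -4.18, GSTU20 at -4.94, AT2G31790 at -1.18 and GTR2 at -1.19. The split of calls over all probe sets depended on scaling, with 1303 higher and 2550 lower for the signals as deposited, 1974 and 1898 after quantile normalization, 2330 and 1305 after median centring, 1637 and 692 after centring on reference genes, and 4349 and 564 once arrays were scaled to their hybridization spike-ins. The members' own differences were negative under each of these scalings and relative to its median. After scaling to the spike-ins they were -3.23 for BCAT4, -4.38 for GSTU20, -0.70 for AT2G31790 and -0.86 for GTR2, and GTR2 was the 1 gene whose groups then overlapped, with a highest exudate value of 23.2 against a lowest LMPC value of 20.5.

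**Figure D2:**
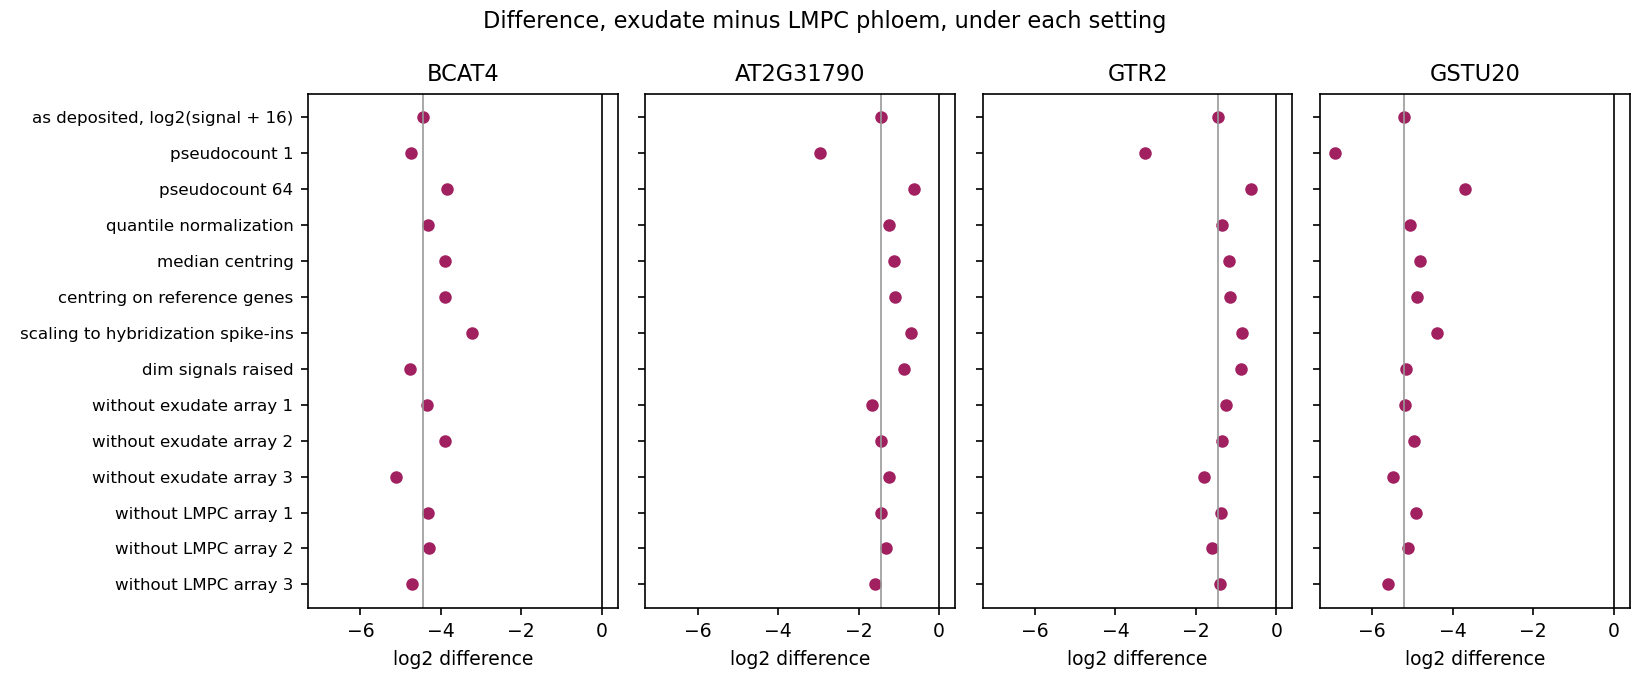
Log2 difference (exudate minus LMPC phloem) of each gene for the signals as deposited (top row and grey line) and under each other setting. Every point lies left of the black line at 0; the choice of pseudocount moved GTR2 between -3.26 and -0.62, and BCAT4 stayed between -5.11 and -3.23.

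Within exudate the members did not vary alike. BCAT4, GSTU20 and GTR2 were highest on exudate array 3, and AT2G31790 was lowest there. BCAT4 and GSTU20 were lowest on array 2, and GTR2 was lowest on array 1. These positions were the same after median scaling. For the 3 dim genes the order rests on signals below the 75th percentile and carries little weight. For BCAT4 it does not, and the SD of its exudate values on the log2(signal + 16) scale was 1.24, against a median SD of 0.35 over all tested probe sets. Only 20 of the 15320 probe sets had a larger SD in exudate. After median scaling the exudate signals of BCAT4 were 98.6, 39.2 and 279 on arrays 1, 2 and 3. They ran from 60.1 to 249.7 when scaled to reference genes and from 73.0 to 284 when scaled to the spike-ins, so the spread was narrower under these scalings than as deposited.

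Within LMPC phloem, BCAT4, AT2G31790 and GSTU20 were lowest on LMPC array 3, before and after median scaling, and GTR2 was lowest on LMPC array 2. GSTU20 varied most there, with a highest signal 2.67 times the lowest. Its SD on the log2(signal + 16) scale was 0.54 in exudate and 0.71 in LMPC phloem, where the median SD over all tested probe sets was 0.34. The SD was 0.60 in exudate and 0.25 in LMPC phloem for GTR2, and 0.43 in exudate and 0.28 in LMPC phloem for AT2G31790. BCAT4, at 1.24 in exudate, had 0.47 in LMPC phloem.

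The other glucosinolate genes were covered thinly by the probe annotation used here. The lists held 60 genes of chain elongation, core structure, side chain modification, the indole branch, regulators, transport and breakdown. The annotation assigned a probe set of their own to 7, and 4 of these were the members. The other 3 were UGT74B1, GTR1 and AOP3. The remaining 53 genes were not analysed here. With 8730 probe sets unnamed and 503 paired with several genes, this is a limit of the annotation. It does not show that the array lacked these genes. Neither of the 2 tested genes was called (limma, 0 lower and 0 higher, and 0 at an unadjusted p under 0.05). Over all genes tested, 17.5% were called lower and 6.23% higher in exudate. With only 2 genes tested, nothing is read from the count and no statement on the pathway as a whole can be drawn.

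GTR1 (AT3G47960), the partner of GTR2 in phloem loading, had signals of 10.9, 47.8 and 52.9 on the exudate arrays, against 39.9, 29.4 and 47.3 on the LMPC arrays. The groups overlapped, and the difference was -0.15 ± 0.36 (limma, adjusted p = 0.799). Both transporters had similar LMPC means, but brightness is not comparable between probe sets. In exudate, GTR1 exceeded the 75th percentile on arrays 2 and 3, where GTR2 did not on any. The sign for GTR1 turned with scaling, to +0.26 after median centring and +0.77 after scaling to the spike-ins, and without exudate array 1 it was +0.29. None of these passed. UGT74B1 (AT1G24100), the glucosyltransferase of glucosinolate synthesis in general, had 44.3, 13.8 and 43.1 in exudate, against 34.3, 25.6 and 17.0 in LMPC phloem. Its groups also overlapped, with a difference of +0.21 ± 0.34 (limma, adjusted p = 0.693). After scaling to the spike-ins it was called higher (+1.03, adjusted p = 0.0179). AOP3 (AT4G03050), which modifies the side chain, was too dim to be tested, with 5.5, 1.3 and 3.2 in exudate, against 38.9, 4.19 and 42.0 in LMPC phloem. On 2 LMPC arrays AOP3 was above its 75th percentile.

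Close relatives of the members were measured on the same arrays. Among the tau class glutathione transferases, a family of detoxification and conjugation enzymes, the annotation assigned a probe set to 10 genes besides GSTU20. Of these, 6 passed the filter on dim signals. Over all 8634 genes tested, 17.5% were called lower and 6.23% higher in exudate. Limma called 0 of these 6, and 1 of them had an unadjusted p under 0.05, with differences from -0.99 to +0.67 and a median of -0.15. GSTU27 (AT3G43800) was bright on all 6 arrays, with 119, 80.6 and 177 in exudate, against 74.8, 56.2 and 79.0 in LMPC phloem. Its exudate arrays were all above its LMPC arrays, as for 12.1% of the tested probe sets. The difference of +0.67 ± 0.33 had an adjusted p = 0.144 (limma). It was called after median centring (+1.20, adjusted p = 0.00863), and likewise with reference genes (adjusted p = 0.0371) or spike-ins (adjusted p = 0.00015) as the scale. GSTU23 (AT1G78320) had 16.1, 3.1 and 1 in exudate, against 43.1, 41.6 and 7.82 in LMPC phloem, and the difference of -0.99 ± 0.38 missed the threshold (limma, adjusted p = 0.0624). Without LMPC array 3 it was called (-1.42, adjusted p = 0.0149).

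GSTU16 and GSTU18 differed by -0.17 (limma, adjusted p = 0.716) and +0.07 (0.899), and the sign of GSTU16 turned to positive after quantile normalization, both centrings and scaling to the spike-ins. GSTU28 differed by -0.27 (adjusted p = 0.562), with a positive sign after centring on reference genes or scaling to the spike-ins. GSTU18 was called higher after scaling to the spike-ins (+0.87, adjusted p = 0.0439). In the BCAT family, which also serves branched-chain amino acid metabolism, ATBCAT-5 (AT5G65780) had 13.6, 26.4 and 30.1 in exudate, against 68.0, 60.9 and 16.1 in LMPC phloem. Its groups overlapped through LMPC array 3, and the difference was -0.61 ± 0.37 (limma, adjusted p = 0.235), against the -4.45 of BCAT4. The pseudocount limits the difference more tightly for a gene as dim in LMPC phloem as ATBCAT-5, so these sizes are not directly comparable. Without LMPC array 3 ATBCAT-5 was called (-1.05, adjusted p = 0.0461), and after scaling to the spike-ins its sign turned (+0.31). UGT74D1 (AT2G31750), a relative of UGT74B1, was dim in both groups, with means of 8.07 ± 7 in exudate and 10.1 ± 9.76 in LMPC phloem (SD, n = 3 each) and a difference of -0.09 (limma, adjusted p = 0.881) whose sign turned under all 4 scalings. Members included, the annotation assigned a probe set to 3 of 7 listed BCAT genes, 4 of 7 UGT74 genes and 4 of 7 transporters of the GTR group.

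**Figure D3:**
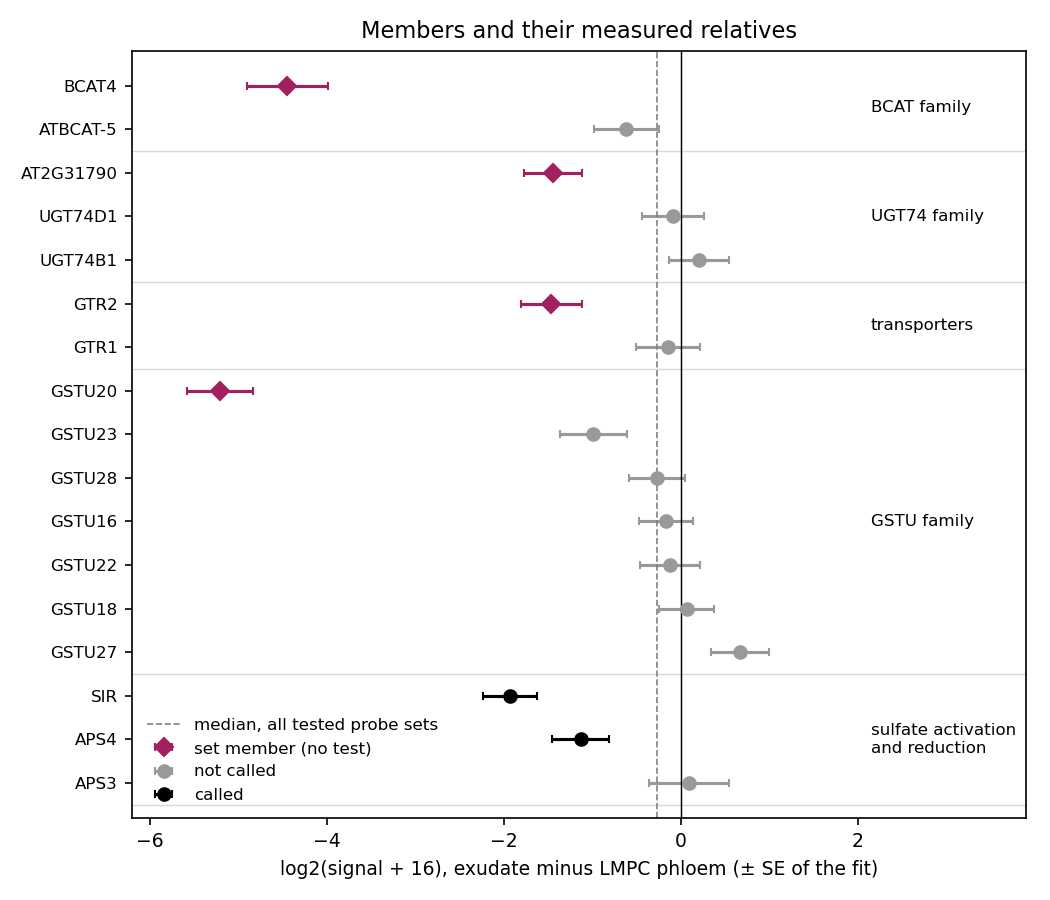
Log2 difference (exudate minus LMPC phloem) with the SE of the fit for the 4 members (diamonds, no test) and their tested relatives and the sulfate genes (circles, black where called by limma and grey where not). The dashed line is the median of all tested probe sets, -0.27. Among relatives and sulfate genes only SIR at -1.93 and APS4 at -1.13 are called. The pseudocount limits how negative a difference can be, more tightly for genes dim in LMPC phloem.

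Glucosinolate synthesis uses reduced and activated sulfate, and 3 of 12 listed genes of sulfate activation and assimilation were measured. Of these, 2 were called lower in exudate and 0 higher, beside 17.5% lower and 6.23% higher over all genes tested. So few genes allow no reading of the count. SIR (AT5G04590), sulfite reductase, had signals of 26.0, 31.4 and 22.8 in exudate, against 173, 154 and 116 in LMPC phloem. The groups were far apart and steady, with a difference of -1.93 ± 0.31 (limma, adjusted p = 0.000127). APS4 (AT5G43780), an ATP sulfurylase, had 67.9, 56.4 and 103 in exudate, against 183, 225 and 142 in LMPC phloem, a difference of -1.13 ± 0.32 (limma, adjusted p = 0.0148). APS3 (AT4G14680), a further ATP sulfurylase, had 16.2, 43.8 and 167 in exudate, against 38.2, 61.9 and 52.8 in LMPC phloem, and was not called (+0.09 ± 0.45, adjusted p = 0.903).

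The call of SIR was lost after scaling to the spike-ins (-0.84, adjusted p = 0.0607), where APS4 turned to +0.06. APS4 also lost its call after both centrings, with the pseudocount set to 1 (adjusted p = 0.113), and when any 1 of exudate array 1 (adjusted p = 0.0592), exudate array 2 (0.0650) and LMPC array 2 (0.0672) was left out. Like BCAT4, APS3 was highest on exudate array 3, and without that array its difference was -0.59 (adjusted p = 0.249).

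The position of the members on the chromosomes was compared with their differences through the gene order of assembly TAIR10.1. GSTU20 lies on chromosome 1 in a run of tau class genes, with GSTU21, GSTU22 and GSTU23 on one side and GSTU19 on the other. Of these, GSTU22 was tested and not called (-0.12), like GSTU23, GSTU21 was below the filter, and GSTU19 was not analysed here. Over the 5 protein-coding genes on each side of each member, 14 of 40 neighbours were tested, of which 0 were called lower and 2 higher in exudate (limma, with 2 at an unadjusted p under 0.05 in the lower direction). The shares over all genes tested were 17.5% lower and 6.23% higher, and nothing is read from so few neighbours. The 2 higher ones were AT3G19680 near BCAT4 (+0.92, adjusted p = 0.0375) and AT2G31810 near AT2G31790 (+1.63, adjusted p = 0.00222), both named after their values were seen.

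To find transcripts of like pattern, each profile of log2(signal + 16) was centred on its mean over the 6 arrays, and genes were ranked by the root mean square difference between profiles. The measure is a description over 6 arrays that share their group difference, and it carries no test. BCAT4 was the 10th of 8633 genes nearest to GSTU20 and GSTU20 the 4th nearest to BCAT4, at a distance of 0.58 log2 units. The median distance to all genes was 2.51 from GSTU20 and 2.21 from BCAT4. The size of the group difference, known when these genes were chosen, weighs heavily in this distance. Few genes differed as much, so the nearness of GSTU20 and BCAT4 was largely given in advance and nothing is read from it. GTR2 and AT2G31790 were 0.65 apart, which is close to the median distance of 0.75 from GTR2 to all genes. The distance includes their exudate signals, all below the 75th percentile, whose order carries little weight.

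The gene nearest to both GSTU20 (0.20) and BCAT4 (0.56) was MSRB5 (AT4G04830), a methionine sulfoxide reductase gene, which had signals of 52.0, 38.5 and 83.6 in exudate, against 2982, 3029 and 1175 in LMPC phloem. Next to GSTU20 came AT5G04080, AT1G15270, AT1G50290 and MT1C (AT1G07610), a metallothionein gene with 20.1, 1.3 and 7.5 in exudate, against 776, 991 and 634 in LMPC phloem. Besides MSRB5 and GSTU20, the genes nearest to BCAT4 were AT1G21440 and the chloroplast genome transcripts ccsA, of cytochrome c assembly, and psbM, of photosystem II. Both chloroplast transcripts were also highest in exudate on array 3. The gene nearest to AT2G31790 was WLIM2a (AT2G39900), an actin-binding LIM domain protein gene, at 0.11, followed by AT5G01200, AT5G35480, AT1G67820 and AT1G20430. The genes nearest to GTR2 were AT5G03460 at 0.06, AT2G06470, AT2G35120, AT3G59780 and AT3G06700. The probe set of AT2G06470 is of the kind that may also bind related transcripts, which makes its value uncertain.

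**Figure D4:**
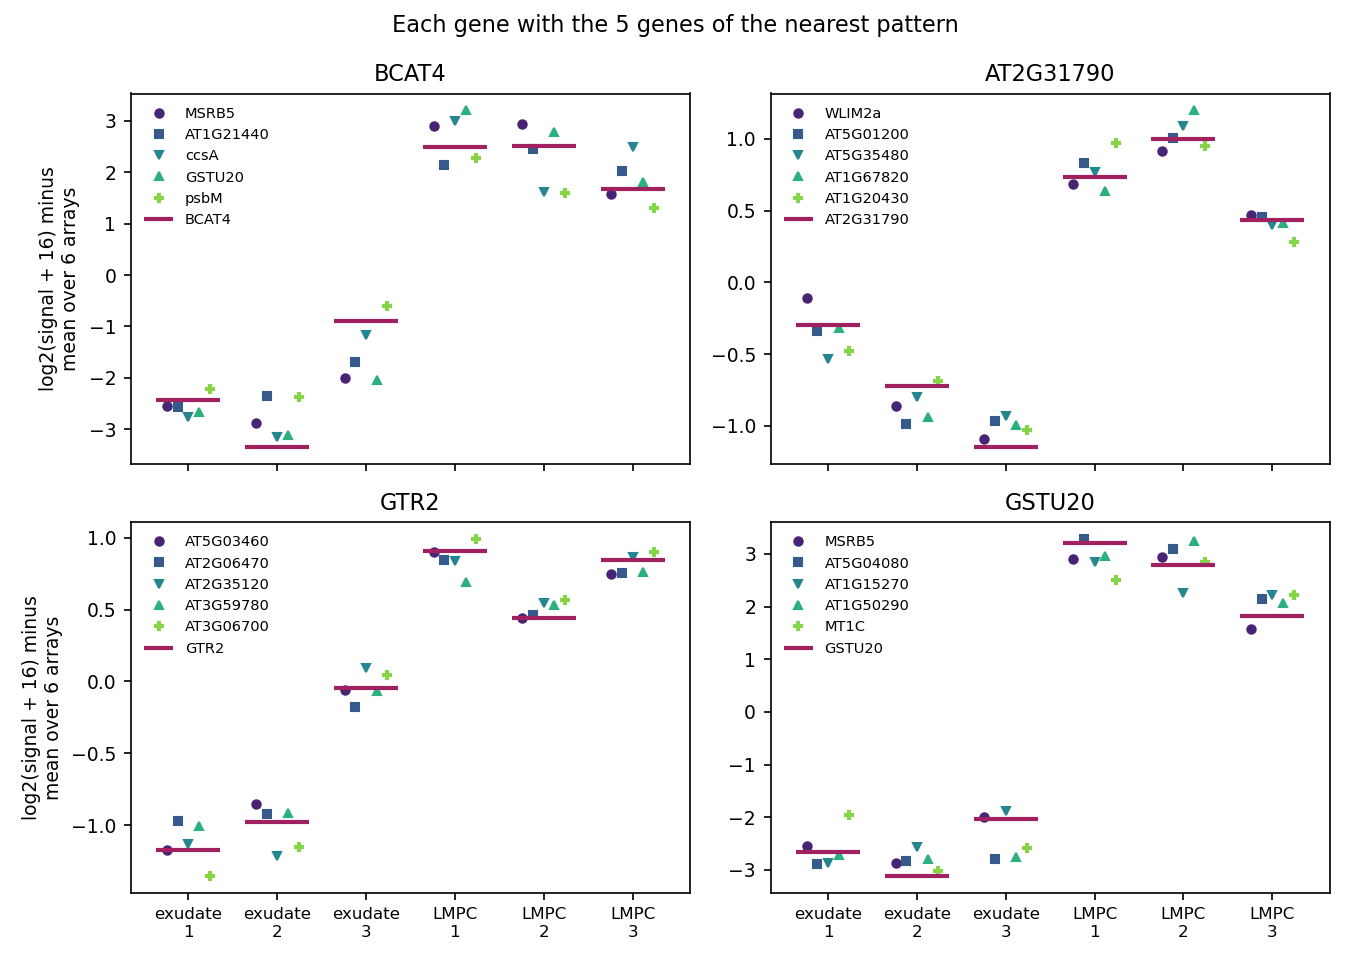
Log2(signal + 16) minus its mean over the 6 arrays, for each member (bars) and the 5 genes of nearest pattern (symbols) on exudate arrays 1 to 3 and LMPC phloem arrays 1 to 3. On exudate array 3 the bars of BCAT4, GTR2 and GSTU20 are at their highest in exudate and that of AT2G31790 is at its lowest.

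Other features of the arrays were set beside the members. The trimmed mean signal was 17.8 to 28.0 on exudate arrays and 22.7 to 28.6 on LMPC arrays, which overlap. The median signal did not overlap, at 8.9 to 10.3 on exudate arrays and 13.5 to 15.9 on LMPC arrays. The ratio of the 3' to the 5' control probe set did not overlap for GAPDH, at 5.99 to 34.7 in exudate and 36.8 to 48.6 in LMPC phloem. For actin it did not overlap either, in the other direction, at 12.5 to 73.4 in exudate and 4.87 to 6.63 in LMPC phloem. For ubiquitin it did overlap, at 6.24 to 8.94 in exudate and 8.62 to 10.5 in LMPC phloem. Listed phloem markers, of which 3 of 11 were measured, summed to signals of 112 to 179 in exudate and 210 to 444 in LMPC phloem. Of these, SWEET11 and CLE41 were called lower and CLE44 was called higher, and they do not tell phloem cell types apart. The labelled tissue could be checked only through these 3, since markers such as SUC2 and APL were not analysed here. The 1 measured xylem marker of 11, GUT2, lay at 16.0 to 33.5 in exudate and 64.9 to 80.6 in LMPC phloem. It was called lower in exudate (-1.09, limma, adjusted p = 0.0156), as were SWEET11 and CLE41 of the phloem markers. Photosynthesis markers (4 of 15) summed to 974 to 1880 in exudate and 242 to 907 in LMPC phloem, sums to which the brightest probe sets contribute most. Of these, LHCB4.1, LHCB4.2 and RCA were called higher, whereas PRK differed by -0.72 (limma, adjusted p = 0.149) with means of 53.5 in exudate and 103 in LMPC phloem. Epidermis and guard cell markers (2 of 9) summed to 30.3 to 74.1 in exudate and 21.9 to 35.5 in LMPC phloem, which overlap. Here AT1G22690 was called higher (+1.40, limma, adjusted p = 0.00789) and FMA differed by -0.59 (adjusted p = 0.198). Some marker signals were very dim, such as FMA at 0.9 on exudate array 1 and AT1G22690 at 1.43 on LMPC array 2. The part of these features in the members' differences was not tested.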

How the data were processed

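Each deposited value is an intensity, a linear MAS5 signal of 1 probe set, per the submitters' processing notes. The MAS5 version, its scaling target and any genome build: not given in the sources used here. The table held 22810 probe sets, 64 of them controls. A dated probe table paired 13513 with 1 gene and 503 with several, and 8730 were unnamed here; 13436 of the 13513 matched a gene of TAIR10.1. A gene was measured by its single-gene probe set of highest mean signal, which gave 13356 genes, 8634 of them tested. Groups came from the sample titles.

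Probe sets that exceeded the 40th percentile of the array on 3 or more of the 6 were tested with limma 3.58.1 in R 4.3.3 (lmFit and eBayes on log2(signal + 16), no further scaling, no covariate, Benjamini-Hochberg over all 15320). The design had assumed scaled arrays; none showed, so other scalings are given. The fit was tested on simulated data. The members and lists were chosen with earlier results of these data known. Named genes were the members, measured genes of the glucosinolate, sulfate and family lists, and the 5 nearest patterns per member. Genes of the marker and reference lists and neighbours are named as context. Alternatives were 2 pseudocounts, no filter, 4 scalings, a replicate block, each array left out, and, added later, dim signals raised to the 75th percentile. Detection calls and sequences were not used here. The 3 arrays per group limit the precision.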

Additional observations from a re-analysis of the deposited data

How the results depend on the processing

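The differences of the 4 members were negative under every alternative run. With single arrays left out they ranged from -5.11 to -3.88 for BCAT4, -1.66 to -1.23 for AT2G31790, -1.81 to -1.24 for GTR2 and -5.60 to -4.91 for GSTU20. A pseudocount of 1 gave -2.96 for AT2G31790, -3.26 for GTR2 and -6.94 for GSTU20, and one of 64 gave -0.63, -0.62 and -3.70 in the same order, by its own construction for signals near the pseudocount. Scaling to the hybridization spike-ins gave -3.23 for BCAT4, -0.70 for AT2G31790, -0.86 for GTR2 and -4.38 for GSTU20. Raising dim signals gave -0.88 for both AT2G31790 and GTR2.

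Higher calls over all probe sets numbered 1303 as deposited, 1974 after quantile normalization, 2330 after median centring and 4349 after spike-in scaling, and 907 to 1216 with single arrays left out. Lower calls numbered 2550, with 1305 after median centring, 692 after centring on reference genes, 564 after spike-in scaling, and 1521 to 2469 with single arrays left out, lowest without exudate array 1 and 1671 without LMPC array 1. The other pathway genes, too few for a reading of the count, had 0 calls either way, apart from 1 higher (UGT74B1) after spike-in scaling. They had 0 to 0 with single arrays left out. The labels name no pairing of same-numbered arrays, whose deviations from the group means correlated at between -0.07 and -0.004. Differently numbered arrays correlated at between -0.04 and 0.06, so these values cannot decide whether arrays were paired. With the replicate number as a block there were 1220 higher and 2207 lower calls and again 0 for pathway genes. Of the genes named, GSTU23 gained a call under the block (adjusted p = 0.0455).

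Signs that turned were those of small differences and of APS4 and CBL; the cause was not tested. Spike-in scaling gave GTR1 0.77, APS4 0.061, ATBCAT-5 (BCAT5) 0.31, UGT74D1 0.23, GSTU16 0.59, GSTU22 0.29, GSTU28 0.32, CBL 0.064, MMT 0.36 and HMT1 0.33. Centring on reference genes gave GTR1 0.37, UGT74D1 0.0094, GSTU16 0.23, GSTU22 0.081, GSTU28 0.055, MMT 0.031 and HMT1 0.030. Median centring gave GTR1 0.26, UGT74D1 0.090, GSTU16 0.17 and GSTU22 0.078, and quantile normalization 0.034, 0.078, 0.10 and 0.079. A pseudocount of 1 gave APS3 -0.012. With single arrays left out, differences that turned sign ranged from -0.39 to 0.29 for GTR1 (turned without exudate array 1), -0.59 to 0.66 for APS3 (exudate array 3, LMPC array 1), -0.38 to 0.18 for UGT74D1 (exudate array 2, LMPC array 3), -0.078 to 0.17 for GSTU18 (exudate array 1, LMPC array 2) and -0.41 to 0.030 for GSTU22 (exudate arrays 1 and 2, LMPC array 2).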

Other observations

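Genes of methionine metabolism, which supplies the substrate of BCAT4, were listed after the other lists had been examined, together with genes of cysteine and glutathione synthesis and sulfate transporters. Of 36 entries 4 were measured and tested, all from methionine metabolism, with 1 called lower, 1 higher and a median difference of -0.37 against -0.27 over all tested probe sets. The shares over all genes tested were 17.5% lower and 6.23% higher. MGL (AT1G64660), the methionine gamma-lyase that breaks methionine down, had signals of 104, 60.6 and 67.2 in exudate, against 19.8, 14.0 and 2.71 in LMPC phloem, the LMPC values all below the 75th percentile of their arrays. Each exudate array was above each LMPC array, as it was for 12.1% of the tested probe sets. The difference was +1.75 ± 0.33 (limma, adjusted p = 0.000806), a call kept under every alternative run. With any single array left out it lay between 1.48 and 1.95.

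CBL (AT3G57050), the cystathionine beta-lyase of methionine synthesis, had 78.9, 49.5 and 27.1 in exudate, against 174, 140 and 69.7 in LMPC phloem, where exudate array 1 and LMPC array 3 overlapped. Its difference of -1.08 ± 0.37 was called (limma, adjusted p = 0.0372), but not after any of the 4 scalings, with either other pseudocount, without the filter on dim signals, or when any 1 of exudate arrays 2 and 3 and LMPC arrays 1 and 2 was left out (adjusted p of 0.0804 to 0.159). MMT (AT5G49810), a methionine methyltransferase, and HMT1 (AT3G25900), a homocysteine methyltransferase, were not called, with differences of -0.36 (limma, adjusted p = 0.444) and -0.39 (0.393).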
